A study of Mus musculus with 4 samples.

Results

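This report covers the histone deacetylases, the enzymes that place or remove methyl groups on histones, and the enzymes that methylate DNA or oxidise methylated DNA, in nuclei of the mouse hippocampus. The members were chosen by gene symbol alone, as the numbered Hdac, Sirt, Kdm, Kmt, Dnmt, Tet and Ezh genes of the deposited feature list, with 3 members of the Kdm family left out by the rule (Kdm5c, Kdm5d and Kdm6a), which gave 52 of 32285 features. The data are single-nucleus RNA sequencing (10x Chromium, which tags each RNA molecule with a unique molecular identifier, UMI) of 4 libraries, 2 from trained and 2 from untrained mice. Trained mice had learned active place avoidance, a task in which a mouse learns to keep out of a shock zone. The hippocampus was collected 3 days after the memory was tested in a retention session, and the untrained mice were the controls. Mice of both groups carried ArcCreERT2::eYFPflx, in which an inducible Cre recombinase under control of the activity-dependent gene Arc switches on a yellow fluorescent protein. Age was not given in the sources used here, and the fluorescently tagged nuclei were not analysed apart from the rest. With 2 mice a group, each p-value for training sets the difference between groups against the spread of libraries within a group. Those for cell classes use the spread of class sums of the same libraries, pooled over classes. Differences between whole libraries are taken out first.

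Histone acetylation loosens chromatin and is removed by the deacetylases: the zinc-dependent Hdac enzymes of classes I, II and IV, and the sirtuins, which use NAD+. Methyl groups on histone lysines are written by enzymes such as the Kmt2 and Ezh families and erased by the Kdm family, and the effect on transcription depends on which lysine is marked. The Dnmt enzymes methylate cytosine, mostly where it precedes guanine (CpG), and the Tet dioxygenases oxidise that mark. Several of these enzymes, among them Hdac2, Hdac3, Dnmt3a, Tet1 and Kmt2a, are studied in the hippocampus for their part in memory.

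Promoter sequences are shown for Hdac9 and Hdac8, the members with the smallest adjusted p in the comparison of cell classes, and for Kdm7a, which has the most CpG of any member promoter found, because CpG is the substrate of the Dnmt and Tet members. They come from RefSeq on GRCm38.p6 and hold the 250 bases before a listed start, read 5′ to 3′ on the gene's strand, which is the minus strand for all 4 windows; capitals mark each CpG, a motif (CG) that reads the same on both strands. The Hdac9 windows are chr12:34917096-34917345 (start A) and chr12:34528890-34529139 (start B), that of Hdac8 is chrX:102505159-102505408, and that of Kdm7a is chr6:39206774-39207023.
Hdac9 start A: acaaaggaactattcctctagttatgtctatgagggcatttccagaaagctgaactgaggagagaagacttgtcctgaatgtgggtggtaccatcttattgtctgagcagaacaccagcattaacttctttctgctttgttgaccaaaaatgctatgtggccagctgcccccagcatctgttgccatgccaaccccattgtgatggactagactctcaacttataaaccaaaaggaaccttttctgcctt
Hdac9 start B: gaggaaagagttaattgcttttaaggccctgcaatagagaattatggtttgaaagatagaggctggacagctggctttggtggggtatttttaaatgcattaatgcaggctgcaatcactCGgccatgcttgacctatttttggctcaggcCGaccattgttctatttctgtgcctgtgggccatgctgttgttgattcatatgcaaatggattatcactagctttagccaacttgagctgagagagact
Hdac8: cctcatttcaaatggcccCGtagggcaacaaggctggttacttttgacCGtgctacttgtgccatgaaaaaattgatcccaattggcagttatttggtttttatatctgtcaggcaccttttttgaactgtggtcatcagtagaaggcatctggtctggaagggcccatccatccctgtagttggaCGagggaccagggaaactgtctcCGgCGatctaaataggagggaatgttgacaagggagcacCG
Kdm7a: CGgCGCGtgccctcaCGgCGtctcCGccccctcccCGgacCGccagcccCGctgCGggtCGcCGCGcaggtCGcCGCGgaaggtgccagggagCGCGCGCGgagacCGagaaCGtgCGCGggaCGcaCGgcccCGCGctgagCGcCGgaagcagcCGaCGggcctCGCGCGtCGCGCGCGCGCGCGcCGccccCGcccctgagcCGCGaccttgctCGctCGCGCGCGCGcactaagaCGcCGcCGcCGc

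The Hdac9 windows hold 0 and 2 CpG, the Hdac8 window holds 6 and the Kdm7a window holds 56. Of the 52 members, 40 were found in the promoter table with 61 starts in all, and their median was 17 CpG in 250 bases, beside 6 over all 32851 promoters of the table. A CpG was found in 92.1% of all promoters, and 29.0% of all promoters held at most 2. Among member starts, 6 held at most 2, namely both starts of Hdac9 and 1 start each of Kdm4c, Kdm3a, Dnmt1 and Dnmt3aos. Tet2 (51 CpG) and Kmt2c (48 CpG) were next to Kdm7a. These are counts of letters in the window, not measurements of methylation.

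**Figure D1:**
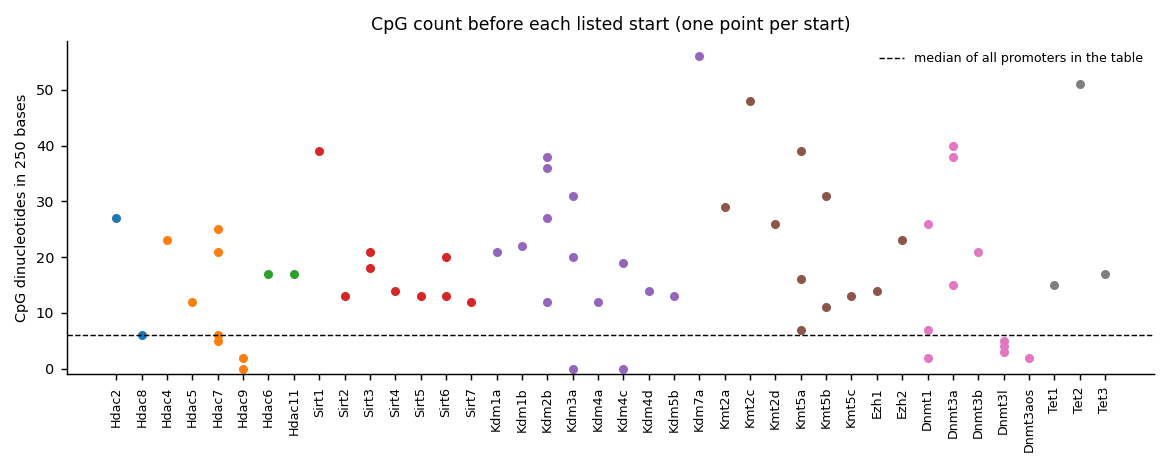
CpG dinucleotides in the 250 bases before each listed start (vertical axis) for the 40 members found in the promoter table, 1 point per start, coloured by role; the dashed line is the median of all promoters, 6. Both Hdac9 points lie at or under 2, and Kdm7a is highest at 56.

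The deposited libraries held 41903 to 79810 barcodes, of which 6019 (Trained 1), 12206 (Trained 2), 16916 (Untrained 1) and 11969 (Untrained 2) had at least 600 UMIs, with medians of 736 to 1079 UMIs per barcode. Nuclei were assigned to cell classes from marker genes, none of which is a member. A barcode is called by the name of a class, as dentate granule-like, CA1-like and so on, and the names are used below without the suffix. Between 23.7% and 35.0% of barcodes received a class. Of 13 classes, 10 were tested: dentate granule (2459 barcodes), CA1 (2052), CA3 (915), inhibitory (2505), oligodendrocyte (1122), oligodendrocyte precursor (OPC, 466), astrocyte (1335), ependymal (303), and also thalamic (1769) and deep cortical (1127) neurons, which lie outside the labelled hippocampus. In these 10 classes 2.04% to 39.5% of a class's barcodes lay close to the threshold in a given library. Among the classes with at least 30 barcodes in every library, held-out markers of each tested class were highest in that class. This was a condition for testing a class. The values ran from 1.59 times the library mean for CA1 to 29.0 times for ependymal nuclei. Some classes were little separated: held-out CA3 markers stood at 1.81 in CA3 and 1.61 in thalamic nuclei. Held-out CA1 markers stood at 1.59 in CA1 and 1.33 in deep cortical nuclei. In choroid plexus barcodes, which were too few to test (24 in Trained 1), held-out CA1 markers stood at 2.24 and deep cortical markers at 12.4 times the library mean, above CA1 (1.59) and deep cortical nuclei (2.09) themselves. Trained 1 was the shallowest library and gave as few as 48 deep cortical and 49 ependymal barcodes. Some measures differed by group: Ttr, a choroid plexus transcript, stood at 1047 and 1024 CPM (UMI counts scaled to a common library total) in trained libraries against 335 and 434 CPM in untrained libraries. The median mitochondrial share was 0.271% and 0.281% against 0.445% and 0.378%. Their part in the results below was not tested.

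Of the 52 members, 51 had at least 1 UMI in these barcodes, and Dnmt3bos had 0. Dnmt3c and Dnmt3l had 6 UMIs each. After the filter on low counts, 40 members entered the comparison of classes; the 12 left out were Dnmt3bos, Dnmt3b, Dnmt3c, Dnmt3l, Dnmt1, Dnmt3aos, Sirt4, Sirt6, Kmt5c, Kdm4d, Kdm1b and Hdac10, with 0 to 750 UMIs. The filter takes the class as the group, so a member may have entered through the class where it is high. UMIs of all members together made up 54.7 ± 2.43 per 10000 (SD, n = 4 libraries) in thalamic nuclei and 30.5 to 36.2 per 10000 on average in the other 9 classes. Without Hdac9 the thalamic share was 29.0 per 10000. That lay inside the range of the other 9 classes without Hdac9, 26.7 (deep cortical) to 31.8 (astrocyte).

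The first comparison asked in which cell classes each enzyme was higher or lower than in the mean of the other 9 classes. Class IIa deacetylases, led by Hdac9 in thalamic nuclei, held 17 of the 55 differences called at an adjusted p under 0.05 (edgeR quasi-likelihood test, Benjamini-Hochberg over 9216 genes). Of the 55, 34 were higher and 21 lower, in 28 of the 40 members (70.0%, beside 63.6% of genes called in at least 1 class). As a share of all member tests this was 13.8%, beside 18.1% over all genes. Counts by role given below are to be set beside the same shares, 63.6% of genes called in at least 1 class and 18.1% of tests. In each class the share of members called was below the share of genes called: 8 of 40 beside 25.6% of genes in dentate granule, 5 beside 22.7% in CA1, 6 beside 18.3% in CA3, 5 beside 20.6% in inhibitory, 14 beside 36.8% in thalamic, 4 beside 12.5% in deep cortical, 6 beside 17.4% in oligodendrocyte, 5 beside 16.4% in astrocyte, 2 beside 7.74% in ependymal and 0 beside 3.45% in OPC nuclei. In OPC nuclei 4 members had an unadjusted p under 0.05. By direction, thalamic nuclei had 11 members higher (27.5%, beside 19.3% of genes) and 3 lower (7.5%, beside 17.5%). The thalamic count of 14 was 7 without Untrained 2, and 2 with each barcode thinned to 600 UMIs. Without Untrained 2 the count was also 5 in dentate granule nuclei, 3 each in inhibitory, CA3 and CA1 nuclei, 2 each in deep cortical and astrocyte nuclei and 1 in ependymal nuclei; without Untrained 1 it was 3 in inhibitory, 1 in astrocyte and 1 in OPC nuclei, and without Trained 2 it was 2 in deep cortical and 1 in ependymal nuclei. Thalamic nuclei also had the highest mean level of 14 of the 40 members. The median ratio of a member's highest to its lowest class mean was 1.98. Neither the count nor the ratio was taken over all genes, so neither can be read as particular to the members.

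**Figure D2:**
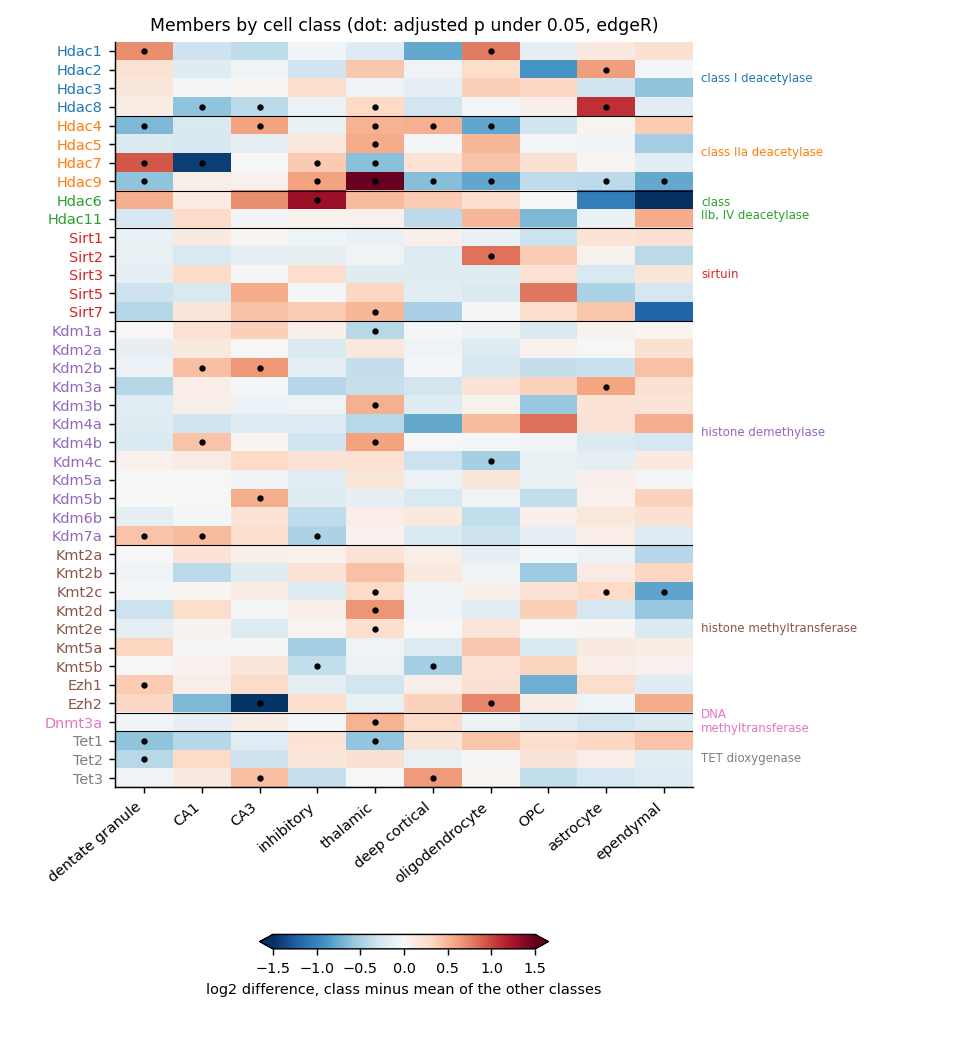
Log2 difference between a class and the mean of the other 9 classes (colour, limited to 1.5 either way) for the 40 members tested (rows, by role) in 10 classes (columns); a dot marks an adjusted p under 0.05. The darkest red cell is Hdac9 in thalamic nuclei, and the OPC column has no dot.

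Levels below are CPM scaled by edgeR's trimmed mean of M values (TMM) over all class sums, given in the order Trained 1, Trained 2, Untrained 1, Untrained 2. The fitted log2 difference averages log levels over classes, so it can differ in size from the ratio of mean CPM. Hdac9, a class IIa deacetylase that represses targets of the MEF2 transcription factors, stood at 2544, 2864, 2810 and 3398 CPM in thalamic nuclei, a mean of 2904 ± 358 (SD, n = 4) beside 425.5 in the mean of the other classes. The log2 difference was 2.82 ± 0.08 (SE), with an adjusted p of 4.3e-69. Every thalamic library was above every library of every other class. Inhibitory nuclei came next, with 861, 745, 568 and 765 CPM and a log2 difference of 0.60 (adjusted p 4.3e-08). CA1 and CA3 nuclei, at 502 CPM each, were not called. Hdac9 was lower than the mean of the others in oligodendrocyte (314 CPM, log2 −0.78), ependymal (284 CPM, −0.77), deep cortical (360 CPM, −0.64), dentate granule (335 CPM, −0.60) and astrocyte nuclei (420 CPM, −0.39). That mean includes the thalamic class. With the thalamic class left out, a comparison added after the data were seen, the difference in dentate granule (−0.27, adjusted p 0.039) and oligodendrocyte nuclei (−0.48) was still called, whereas that in deep cortical (−0.32, adjusted p 0.062), ependymal (−0.49, 0.061) and astrocyte nuclei (−0.10, 0.63) was not. The astrocyte call was also lost without Untrained 1 (−0.31, adjusted p 0.15) or Untrained 2 (−0.30, 0.20). Barcodes of the lowest UMI counts, which carry mostly free RNA, held Hdac9 at 148 to 298 CPM. Values of these barcodes, here and below, are CPM without TMM scaling, so small differences from class levels cannot be read.

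**Figure D3:**
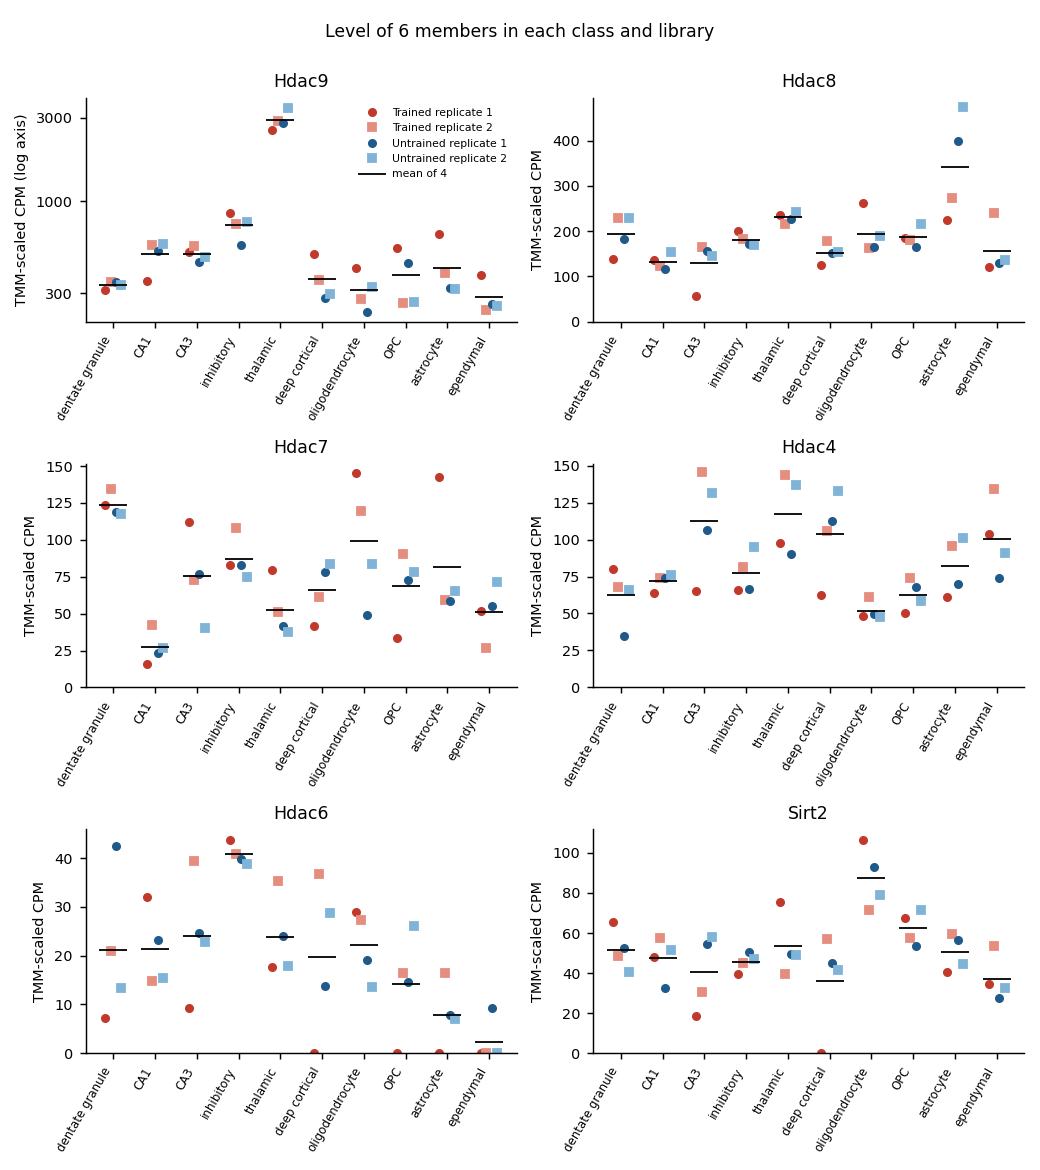
TMM-scaled CPM (vertical axes; a log axis for Hdac9, linear from 0 for the other members) of Hdac9, Hdac8, Hdac7, Hdac4, Hdac6 and Sirt2 in each of 10 classes, 1 point per library and a line at the mean of 4. The 4 thalamic points of Hdac9 lie at 2544 to 3398, and the 4 CA1 points of Hdac7 lie at 16.0 to 42.5.

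The other class IIa deacetylases, which shuttle between nucleus and cytoplasm with neuronal activity, differed from each other in part. Hdac4 and Hdac5 were called higher in thalamic nuclei, as Hdac9 was, and Hdac7 was called lower there. Hdac7 was highest in dentate granule nuclei at 124, 134, 119 and 118 CPM (log2 difference 0.93 ± 0.12 SE, adjusted p 8.1e-11). It was lowest in CA1 nuclei at 16.0, 42.5, 23.2 and 27.0 CPM (−1.41 ± 0.18, adjusted p 7.0e-11), so that the libraries of these 2 classes did not overlap. Hdac7 was also called higher in inhibitory (0.39) and lower in thalamic nuclei (−0.63). The inhibitory call was lost without Trained 2 (0.29, adjusted p 0.25) or Untrained 1 (0.095). The thalamic call held in 11 of 12 alternative settings. Hdac4 was higher in CA3 at 65.5, 146, 107 and 132 CPM (0.61), in deep cortical (0.53) and in thalamic nuclei (0.52), and lower in dentate granule at 80.0, 68.0, 34.9 and 66.1 CPM (−0.67) and in oligodendrocyte nuclei at 48.4, 61.3, 49.3 and 47.3 CPM (−0.78). The CA3 value of Trained 1 lay inside the dentate granule range. The deep cortical call of Hdac4 was lost without Untrained 1 (adjusted p 0.17) or without Untrained 2 (0.082). Its thalamic call held in 11 of 12 alternative settings and its oligodendrocyte call in 12 of 13. Hdac5 was called once, higher in thalamic nuclei at 62.1, 55.3, 61.0 and 34.2 CPM (0.56), and that call was lost without Untrained 1 (0.39, adjusted p 0.20).

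Among class I deacetylases, the nuclear enzymes that act in most corepressor complexes, 3 of 4 members were called in 7 tests, 5 higher and 2 lower. Hdac8, an X-linked class I enzyme that deacetylates cohesin, was highest in astrocyte nuclei at 224, 274, 399 and 473 CPM (log2 difference 1.10 ± 0.10 SE, adjusted p 5.0e-18), beside 173 in the mean of the other classes. Both untrained astrocyte values were above both trained ones. Hdac8 was lower in CA1 at 136, 123, 117 and 154 CPM (−0.61) and in CA3 at 56.1, 164, 156 and 144 CPM (−0.40), and higher in thalamic nuclei (230 ± 11.2 CPM, 0.30). The CA3 call was lost without Trained 1 (−0.31, adjusted p 0.10), Trained 2 (0.060) or Untrained 2 (0.16), and the thalamic call without Untrained 1 (0.14) or Untrained 2 (0.081). Hdac1 was higher in oligodendrocyte at 67.7, 61.3, 65.8 and 49.6 CPM (0.77) and dentate granule nuclei at 43.6, 71.3, 55.6 and 52.6 CPM (0.69), the first of these lost without Untrained 1 (0.65, adjusted p 0.092). Hdac2, which limits memory formation when overexpressed in mice, was higher in astrocyte nuclei at 81.4, 46.2, 77.9 and 44.5 CPM (0.63); the call was lost without Trained 1 (adjusted p 0.053) or Untrained 1 (0.30). The values of Hdac2 fell into a high and a low pair that each held 1 trained and 1 untrained library. Hdac3, the catalytic subunit of the NCoR complex, was called in no class, with class means of 15.1 to 29.9 CPM and a smallest adjusted p of 0.44. Barcodes of the lowest UMI counts held both genes above every class mean, Hdac2 at 75.2 to 93.4 CPM and Hdac3 at 31.1 to 35.3 CPM.

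Hdac6, a mainly cytoplasmic class IIb enzyme that deacetylates tubulin, was called once, in inhibitory nuclei, at 43.7, 40.8, 39.9 and 38.8 CPM beside 17.4 in the mean of the others (log2 difference 1.30 ± 0.22 SE, adjusted p 7.5e-07). The Untrained 1 value in dentate granule nuclei (42.6 CPM) and the Trained 2 value in CA3 nuclei (39.5 CPM) lay inside the inhibitory range. Ependymal nuclei held 1 UMI of Hdac6. Hdac11, the class IV enzyme, had class means of 24.9 to 63.6 CPM and was not called (smallest adjusted p 0.066). In barcodes of the lowest UMI counts it stood above every class mean, at 78.0 to 81.1 CPM.

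Of 5 sirtuins tested between classes, 2 were called, in 2 tests. Sirt2, a tubulin and histone deacetylase that is abundant in myelin, was higher in oligodendrocyte nuclei at 106, 71.6, 93.2 and 78.8 CPM, beside 47.1 in the mean of the others (log2 difference 0.82 ± 0.18 SE, adjusted p 1.7e-04). Barcodes of the lowest UMI counts held Sirt2 at 74.4 to 92.2 CPM, a range that only Trained 1 and Untrained 1 exceeded. Sirt7, a nucleolar sirtuin, was higher in thalamic nuclei (40.7 ± 4.3 CPM, 0.50), a call lost without Trained 2 (adjusted p 0.061), Untrained 1 (0.17) or Untrained 2 (0.089). Inhibitory nuclei, which were not called, had a mean Sirt7 level of 40.3 CPM. Sirt1, the sirtuin most studied in memory, had class means of 16.3 to 35.6 CPM and was not called (smallest adjusted p 0.72).

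Of the 14 demethylases, 12 were tested between classes and 8 were called, 9 times higher and 3 times lower. Kdm7a, which removes repressive methyl marks from histone H3, was higher in the dentate granule at 218, 159, 131 and 134 CPM (log2 difference 0.42) and in CA1 at 104, 168, 134 and 167 CPM (0.47), and lower in inhibitory nuclei at 127, 84.4, 83.6 and 61.5 CPM (−0.47). The inhibitory call of Kdm7a was lost without Untrained 2 (−0.32, adjusted p 0.13). Kdm5b, an eraser of the promoter mark on histone H3, was higher in CA3 at 140, 158, 104 and 127 CPM (0.54). Kdm2b, a subunit of a polycomb complex that binds unmethylated CpG, was higher in CA3 at 74.8, 69.8, 68.4 and 88.7 CPM (0.65) and in CA1 at 32.0, 78.5, 67.4 and 75.9 CPM (0.46). Without Untrained 2 neither Kdm2b call held (adjusted p 0.11 and 0.081). Kdm4b was higher in CA1 (0.42) and thalamic nuclei (0.61), Kdm3b in thalamic nuclei (0.53) and Kdm3a in astrocyte nuclei (0.59), while Kdm4c was lower in oligodendrocyte (−0.50) and Kdm1a, the flavin-dependent demethylase LSD1, in thalamic nuclei (−0.42). Leaving out Untrained 1 ended the calls of Kdm3b (0.31, adjusted p 0.16), Kdm4c (0.071), Kdm3a (0.067) and Kdm4b in CA1 (0.20); leaving out Untrained 2 ended those of Kdm3a (0.36, 0.38), Kdm4b in CA1 (0.19) and Kdm1a (0.097), and leaving out Trained 2 that of Kdm1a (−0.27, 0.25). The CA1 call of Kdm4b held in 6 of 13 alternative settings, with a log2 difference down to 0.15, and its thalamic call in 11 of 12. Kdm6b, a demethylase of the polycomb mark, had class means of 17.2 to 28.8 CPM and was not called (smallest adjusted p 0.31).

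The histone methyltransferases had 6 of 9 tested members called, 6 times higher and 4 times lower. Thalamic nuclei were higher in 3 of the Kmt2 genes. These were Kmt2d at 39.9, 39.8, 43.2 and 47.6 CPM (log2 difference 0.66), Kmt2c at 253, 252, 276 and 304 CPM (0.29) and Kmt2e at 284, 245, 238 and 290 CPM (0.24). Without Untrained 2 the calls of Kmt2d (0.52, adjusted p 0.096), Kmt2c (0.25, 0.12) and Kmt2e (0.15, 0.36) were lost; that of Kmt2c was also lost without Untrained 1 (0.18, 0.25) and that of Kmt2e without Trained 2 (0.054). Kmt2c was also higher in astrocyte (0.30; lost without Trained 2, Untrained 1 or Untrained 2, adjusted p 0.072, 0.29 and 0.20) and lower in ependymal nuclei at 225, 80.3, 83.2 and 136 CPM (−0.79), the last on 49 UMIs and lost without Trained 2 (−0.70, adjusted p 0.053) or Untrained 2 (−0.81, 0.069). Kmt2a, a family member needed for memory in mice, had class means of 147 to 248 CPM and was not called (smallest adjusted p 0.059). Kmt5b, which methylates histone H4, was lower in deep cortical (−0.51) and inhibitory nuclei (−0.37). The deep cortical call was lost without any 1 of the libraries (adjusted p 0.070 to 0.19), and the inhibitory one without Trained 2 (0.076), Untrained 1 (0.33) or Untrained 2 (0.065). Of the polycomb methyltransferases, Ezh1, the form found in resting cells, was higher in dentate granule nuclei (56.8 CPM, 0.38). In barcodes of the lowest UMI counts Ezh1 stood at 51.4 to 53.6 CPM without TMM scaling. That lay inside the range of the dentate granule libraries, 36.4 to 69.4 CPM. Ezh2, the form of dividing cells, was higher in oligodendrocyte nuclei at 29.0, 44.3, 35.6 and 36.0 CPM (0.73). Its mean there was 36.3 CPM, beside 39.5 in dentate granule nuclei, which were not called. Ezh2 was lower in CA3 at 9.35, 3.04, 10.9 and 12.7 CPM (−1.47). The CA3 value of Ezh2 rests on 11 UMIs and the call was lost without Trained 2 (−1.02, adjusted p 0.12). The calls of Ezh1 and of Ezh2 in oligodendrocyte nuclei were each lost without Trained 2 (0.093 and 0.15), Untrained 1 (0.19 and 0.14) or Untrained 2 (0.21 and 0.15).

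Of 7 Dnmt features only Dnmt3a, the methyltransferase that sets new methylation in neurons, entered the comparison of classes. It was higher in thalamic nuclei at 164, 221, 238 and 260 CPM, a mean of 221 beside 158 in the other classes (log2 difference 0.52 ± 0.09 SE). All 3 Tet genes were called. Tet1 was lower in dentate granule at 43.6, 17.8, 26.2 and 17.9 CPM (−0.61) and in thalamic nuclei (−0.59). Its mean in dentate granule nuclei, 26.4 CPM, was above those of CA1 (24.0) and CA3 nuclei (23.5), which were not called. Tet2 was lower in dentate granule nuclei at 43.6, 59.9, 40.4 and 62.7 CPM (−0.42). The dentate granule call of Tet1 was lost without Trained 2 (−0.46, adjusted p 0.19) or Untrained 2 (−0.38, 0.36), and the thalamic call of Tet1 likewise (0.16 and 0.10). The Tet2 call was lost without Trained 2 (0.090), Untrained 1 (0.077) or Untrained 2 (0.088). Tet3, the Tet enzyme that responds to synaptic activity, was higher in deep cortical at 41.8, 187, 81.3 and 156 CPM (0.64) and in CA3 nuclei at 74.8, 109, 118 and 119 CPM (0.45). The lowest value in both classes was that of Trained 1, the shallowest library. The deep cortical call was lost without Trained 2 (0.45, adjusted p 0.094), and that in CA3 without Untrained 1 (0.32, 0.28) or Untrained 2 (0.083). Over all alternative settings the CA3 call of Tet3 held in 5 of 13, with a log2 difference down to 0.15.

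Of the 55 calls, 14 stayed past the threshold in every alternative that gave a value: Hdac9 in thalamic, inhibitory, dentate granule and oligodendrocyte nuclei, Hdac7 in dentate granule and CA1, Hdac4 in CA3 and dentate granule, Hdac8 in astrocyte and CA1, Hdac6 in inhibitory, Kdm7a in CA1, Sirt2 in oligodendrocyte and Dnmt3a in thalamic nuclei. All 55 kept their direction, and 32 were lost when at least 1 of the libraries was left out. Counting is not stated to use strand, and many members overlap another annotated gene, among them Hdac9 (4921508M14Rik and Gm47357 on its own strand), Hdac7 (Slc48a1), Hdac8 (Gm14858), Sirt2 (Nfkbib), Dnmt3a (Dnmt3aos), Kmt2e (Srpk2), Kdm2b (Rnf34), Kdm6b (Kdm6bos), Sirt7 (Mafg, own strand) and Kdm1a (Luzp1), so a share of their reads may be the neighbour's.

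The second comparison asked whether training changed these enzymes, in each class and in all barcodes together. No member was called in any class or in all barcodes by edgeR or by DESeq2. Over all genes the share called was 0.0201% in inhibitory, 0.0152% in CA3, 0.0117% in thalamic, 0.0111% in CA1 and 0.0103% in dentate granule nuclei, and 0.0% in deep cortical, oligodendrocyte, OPC, astrocyte and ependymal nuclei and in all barcodes. By edgeR 13 of 370 member tests (3.51%) had an unadjusted p under 0.05, beside 5.70% of tests over all genes. In data simulated for all barcodes, 63% of genes changed by 2-fold were recovered, and in inhibitory nuclei 48%. Changes of that size or smaller could therefore have been missed. The other classes, each with fewer barcodes than the inhibitory class, were not simulated for training.

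In all barcodes, where a different mix of nuclei and a different level per nucleus cannot be told apart, 49 members were tested. The log2 difference (trained minus untrained) was above 0 for 37 and below 0 for 12, with a median of 0.07, beside a median of 0.00 and 50.5% of genes above 0 overall. Both trained libraries were above both untrained for 12 members (24.5%, beside 17.2% of genes) and below for 3 (6.12%, beside 20.2%). The smallest adjusted p of a member was 0.79. The 2 members with the smallest p were Hdac7, at 85.0, 80.9, 70.9 and 67.6 CPM (0.27 ± 0.12 SE, unadjusted p 0.056 by edgeR), and Tet2, at 69.9, 70.3, 48.7 and 65.3 CPM (0.32 ± 0.16). For Hdac7 the groups did not overlap, and for Tet2 Untrained 1 lay apart from the other 3. The 3 members that were lower in both trained libraries were Kmt5a (−0.24), Sirt3 (−0.20) and Hdac11 (−0.07).

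None of the members often studied in memory was called in all barcodes. Hdac2 stood at 40.8, 38.6, 45.0 and 40.6 CPM (log2 difference −0.10 ± 0.13 SE) and Hdac3 at 25.9, 23.7, 23.2 and 24.6 CPM (0.06 ± 0.14). Dnmt3a stood at 159, 161, 144 and 170 CPM (0.05 ± 0.14), and Dnmt1, the maintenance methyltransferase, at 15.7, 13.4, 15.4 and 15.3 CPM (−0.08). The trained and untrained values overlapped for each of these 4 genes. Kdm6b stood at 24.6, 19.4, 14.0 and 20.2 CPM (0.36 ± 0.21), again with overlap. For Hdac9 the values were 723, 542, 504 and 585 CPM (0.23 ± 0.17), the highest being that of Trained 1. Among the remaining members read out for every comparison, the log2 difference was 0.08 for Hdac4, 0.06 for Hdac5, −0.07 for Hdac11, −0.01 for Sirt1, 0.24 for Sirt2, 0.12 for Kmt2a, 0.04 for Kmt2e, 0.05 for Kdm1a, 0.11 for Tet1, 0.13 for Tet3, −0.04 for Ezh1 and 0.19 for Ezh2, none of them called.

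**Figure D4:**
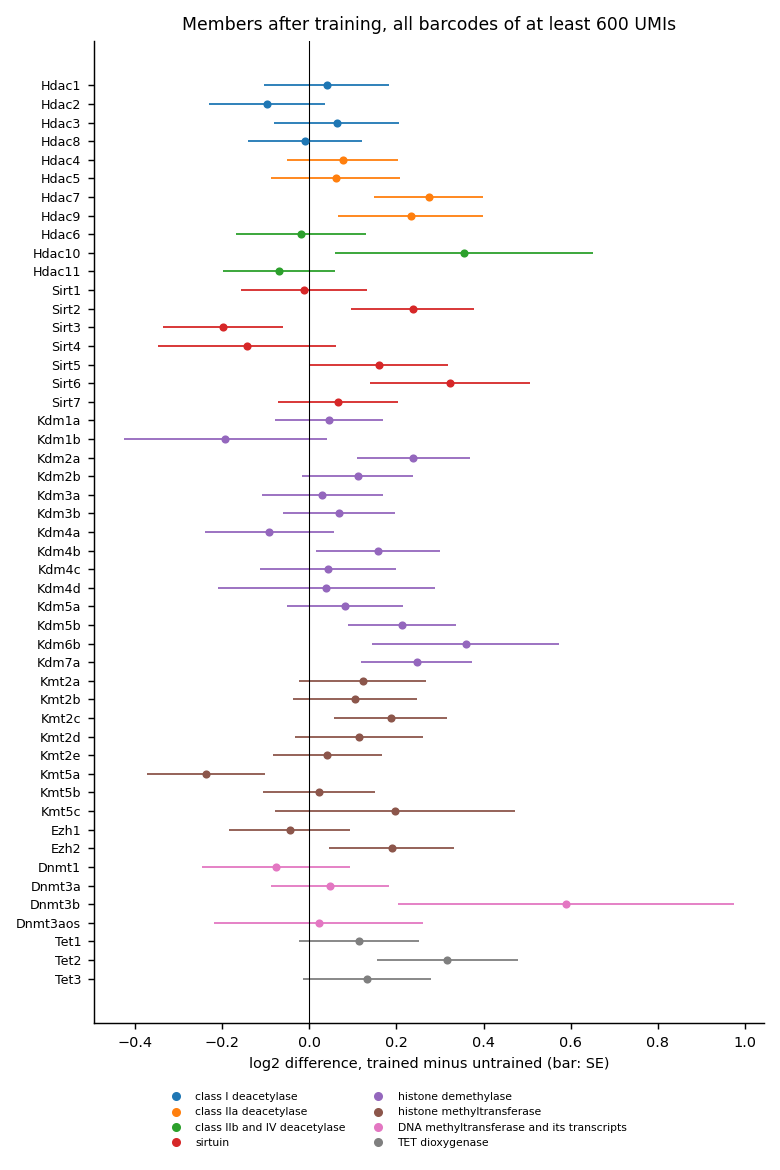
Log2 difference between trained and untrained libraries (horizontal axis; bars are 1 SE) for the 49 members tested in all barcodes of at least 600 UMIs, by role; n = 2 libraries a group. Points lie above 0 for 37 members and below 0 for 12, and none was called.

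Within classes, CPM are scaled in each class separately. Both trained libraries were above both untrained ones for 11 of 43 members tested in dentate granule nuclei (beside 14.2% of genes), 5 of 41 in CA1 (11.9%), 6 of 35 in CA3 (12.3%), 7 of 42 in inhibitory (14.0%), 4 of 41 in thalamic (12.0%), 5 of 30 in deep cortical (12.3%), 4 of 33 in oligodendrocyte (16.1%), 1 of 14 in OPC (12.3%), 3 of 33 in astrocyte (16.5%) and 1 of 9 in ependymal nuclei (11.6%). In the same order, both trained libraries were below for 3 members (beside 21.0% of genes), 2 (21.8%), 7 (17.4%), 7 (19.4%), 11 (21.6%), 9 (28.1%), 2 (19.7%), 2 (25.6%), 4 (25.6%) and 0 (24.5%). In dentate granule nuclei Ezh2 stood at 71.7 and 42.9 CPM in trained and 17.4 and 20.3 in untrained libraries (log2 difference 1.40 ± 0.37 SE, adjusted p 0.82), and in deep cortical nuclei at 21.6 and 8.2 against 35.7 and 34.2 CPM (−1.64 ± 0.78, adjusted p 0.71) on 3 trained UMIs. The groups did not overlap in either class, in opposite directions. A test of the difference between these classes, chosen after the values were seen, gave 3.02 ± 0.83 on the log2 scale with an adjusted p of 0.19 over 8987 genes and was not called. In astrocyte nuclei Hdac8 stood at 227 and 286 against 417 and 493 CPM (−0.70 ± 0.26, adjusted p 0.32) and Hdac9 at 661 and 407 against 334 and 332 CPM (0.72 ± 0.27, 0.32); neither overlapped and neither was called. In oligodendrocyte nuclei Hdac7 stood at 151 and 126 against 50.7 and 85.5 CPM (1.004 ± 0.38, adjusted p 0.84), and without Untrained 2 the value was 1.42 with an adjusted p of 0.013, the single setting in which a member was called for training. That setting leaves 1 untrained library, which is assumed to vary like the trained pair.

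The remaining members with the smallest p in a class were not called either. Kdm6b in CA1 stood at 52.9 and 25.0 against 12.6 and 16.4 CPM (log2 difference 1.17), and Kmt5a, which methylates histone H4, in CA3 at 17.4 and 14.1 against 36.0 and 44.5 CPM (−1.39). In thalamic nuclei Kdm4c stood at 146 and 168 against 100 and 119 CPM (0.61). The groups did not overlap for these 3. The others by log2 difference were Kdm3a in dentate granule (0.77) and CA1 (0.61), Sirt2 in CA3 (−1.03), Sirt3 (−0.68) and Sirt5 (−0.92) in inhibitory, Hdac7 in thalamic (0.67), Hdac9 in deep cortical (0.59), Kdm2b in oligodendrocyte (−1.17), Kdm1a (1.01) and Kmt5b (−0.78) in OPC, and Hdac8 (0.60) and Kdm2a (0.64) in ependymal nuclei. Hdac9 in thalamic nuclei, its highest class, had a log2 difference of −0.15 ± 0.15.

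**Figure D5:**
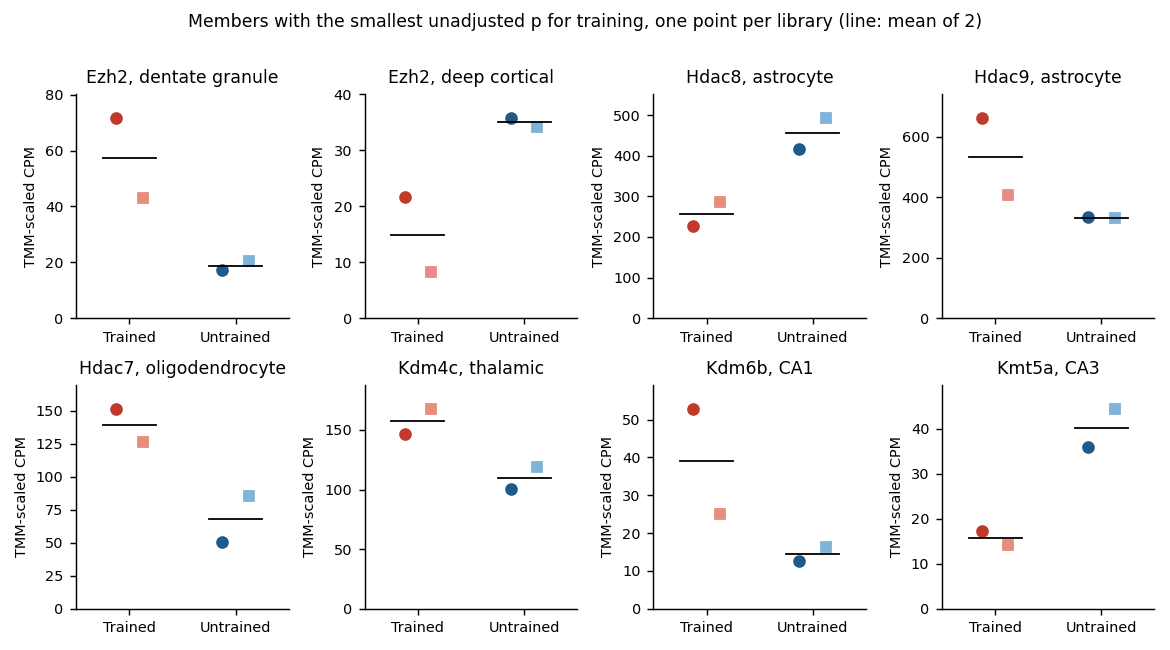
TMM-scaled CPM (vertical axes, from 0; each class scaled separately) in trained and untrained libraries for 8 pairs of member and class among those with the smallest unadjusted p, 1 point per library with a line at the mean of 2. The groups do not overlap in any panel, and no pair was called.

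The partners of these enzymes were read from 7 lists with 89 genes, all found among the features. Of these, 68 entered the comparison of classes and 32 were called in at least 1 class, where 63.6% of all genes were. By list, 2.5% to 12% of tests were called, beside 18.1% over all genes. Of the 12 histone acetyltransferases and coactivators tested, which oppose the deacetylases, 5 were called, among them Kat2b in oligodendrocyte nuclei at 87.8 ± 31.5 CPM beside 34.8 in the others (log2 difference 1.49), Kat6b in dentate granule (0.39) and Ncoa1 in deep cortical nuclei (−0.40). Subunits of the HDAC corepressor complexes had 11 of 21 called, with Tbl1x lower in dentate granule (−0.98), Chd5 higher in inhibitory (0.73) and Chd3 higher in dentate granule nuclei (0.40). Partners of the polycomb enzymes had 2 of 5 called, Jarid2 higher in thalamic (0.40) and Aebp2 in oligodendrocyte nuclei (0.50). Partners of the Kmt2 enzymes had 2 of 8, Ncoa6 higher in thalamic nuclei (0.42) and Hcfc1 lower in CA3 (−1.32). Of 15 other histone methyltransferases 10 were called, with Dot1l higher in dentate granule (0.51), Setd7 in thalamic (0.54) and Smyd3 in deep cortical nuclei (0.45). Jmjd1c, of 4 other demethylases, was lower in deep cortical nuclei (−0.50), and Mbd1, a reader of methylated CpG and 1 of 3 DNA methylation partners, was higher in CA3 (0.75). For training, 87 partners were tested in all barcodes: 0 were called by edgeR and 0 had an unadjusted p under 0.05.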

How the data were processed

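For each of 4 libraries (2 trained, 2 untrained mice) the authors deposited a matrix of raw UMI counts, genes by barcodes. Per the file headers they were made with Cell Ranger 7.0.0, whereas the submitters' processing notes name Cell Ranger 8, STAR and GRCm39 (mm39); which applies is not settled here, nor is the use of strand or introns stated. Barcodes with at least 600 UMIs were kept. Libraries shared at most 65 barcodes per pair. Each barcode was scored for 13 classes with 75 marker genes and took the best class if its score was at least 3, exceeded the next by 1 and rested on at least 2 markers, thresholds set after the data were seen; 40 held-out markers checked the classes. No doublet caller was run, but 73 to 255 barcodes per library above threshold in more than 1 class without that gap were left out. A class needed 30 barcodes in every library, and its held-out markers had to be highest in it among classes of that size; endothelial and choroid plexus classes had too few barcodes, and microglia markers were higher in oligodendrocyte nuclei.

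Counts were summed per class and library. Training was tested within each class and in all barcodes, and each class against the mean of the other classes with the library as a block, by edgeR 4.0.16 (R 4.3.3; filterByExpr, TMM, glmQLFit and glmQLFTest), with Benjamini-Hochberg adjustment over all genes and a threshold of 0.05. DESeq2 1.42.0 was an alternative. The code was tested on simulated counts. Levels are CPM scaled by TMM, except those of barcodes of the lowest UMI counts, which are CPM without TMM. Free RNA was estimated from barcodes with at most 1.25 times the most frequent UMI count. Members and lists were chosen with earlier results of these data known. Genes named are those called for training, the 2 of smallest p for training in each class, per class up to 4 called members that were highest and 2 that were lowest, 19 members always read out, and up to 3 genes per partner list by smallest p; further called members were named after their values were seen. Total UMIs in kept barcodes were 4799202, 12319771, 18423764 and 14763031 (Trained 1, Trained 2, Untrained 1, Untrained 2). Promoters come from RefSeq on GRCm38.p6; gene overlaps come from GENCODE on GRCm38.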

Additional observations from a re-analysis of the deposited data

How the results depend on the processing

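For training, no member was called in any class or in all barcodes under any alternative run, with the exception of Hdac7 in oligodendrocyte nuclei without Untrained 2 (1 untrained library, assumed to vary like the trained pair), so leaving out 1 library gave 0 to 1 members called there and 0 in every other class and in all barcodes. With the replicate number as a block, 0 members were called in every class and in all barcodes. The labels give no link between mice of the same number, and the 2 pairs did not deviate together (correlations of −0.11 to 0.09 over genes). In all barcodes the log2 difference of these members changed sign under an alternative. When 1 library was left out it ranged from −0.182 to 0.0597 for Dnmt1, −0.0725 to 0.172 for Dnmt3a, −0.134 to 0.0459 for Ezh1, −0.0884 to 0.227 for Hdac5, −0.0181 to 0.271 for Kmt2a, −0.0248 to 0.108 for Kmt2e, −0.0804 to 0.0374 for Sirt1 and −0.0222 to 0.298 for Tet3, the reversed sign coming without Trained 1 (Ezh1, Hdac5, Kmt2e, Sirt1), Trained 2 (Dnmt1), Untrained 1 (Dnmt3a, Kmt2a, Tet3) or Untrained 2 (Ezh1). Subtracting free RNA gave Dnmt3a −0.0451, Hdac2 0.122, Kdm1a −0.00961, Kmt2e −0.0389 and Tet1 −0.0119, and a minimum of 1000 UMIs gave Ezh1 0.0592, Hdac5 −0.142 and Sirt1 0.255. Kdm2a in ependymal nuclei ranged from −0.0537 (without Trained 2) to 1.47. The cause was not tested.

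The number of members called between classes changed by over 1.5 times as follows. Subtracting free RNA gave 5 in dentate granule, 3 in inhibitory, 9 in thalamic and 3 in astrocyte nuclei. The stricter gate (score 4, gap 1.5) gave 5 in dentate granule. Thinning each barcode to 600 UMIs gave 5 in dentate granule, 2 in CA3, 3 in inhibitory and 2 in thalamic nuclei, with fewer UMIs by construction. No library block gave 3 in inhibitory, 9 in thalamic and 2 in astrocyte nuclei, and no count filter gave 1 in OPC nuclei. Without the thalamic class there were 8 in CA1 and 1 in ependymal nuclei. Leaving out 1 library gave 5 to 9 members in dentate granule, 3 to 7 in CA1, 3 to 5 in CA3, 3 to 7 in inhibitory, 7 to 15 in thalamic, 2 to 4 in deep cortical, 4 to 6 in oligodendrocyte, 0 to 1 in OPC, 1 to 4 in astrocyte and 1 to 3 in ependymal nuclei. Outside leave-one-out, 9 further calls were lost in at least 1 setting. Those of Hdac1 and Kdm7a in dentate granule and of Kdm5b in CA3 nuclei were lost under the stricter gate. The others were Hdac9 in deep cortical and ependymal, Hdac4 in thalamic and oligodendrocyte, and Hdac7 and Kdm4b in thalamic nuclei. The stricter gate left too few deep cortical and OPC barcodes, and a minimum of 1000 UMIs too few classes to compare.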
